A study of Mus musculus with 11 samples.

Results

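Macrophage genes were followed through the RNA of sorted liver sinusoidal endothelial cells (ECs), the fenestrated cells that line the smallest liver vessels. The set holds 34 genes, taken by gene name from the raw count table: markers of Kupffer cells and of macrophages in general, complement C1q chains, Fc receptors with their adaptors, receptor kinases for apoptotic cells, an oxidase subunit, a lysosomal transporter, lectins and paired receptors, and 1 leukocyte phosphatase. All 34 were among the 29307 listed genes, and 32 of them were among the 12905 genes with enough counts to be tested. Livers came from male C57BL/6J mice that were either germ-free (GF, 5 libraries) or conventionally raised under specific pathogen-free conditions (CONV-R, 6 libraries). The mice were age-matched and carried no transgene, and each library came from the ECs of 1 mouse. Cells were enriched on CD146 beads and then sorted as live CD31+ CD105+ CD146+ cells. The antibody panel described for this sort held no CD45 antibody, so leukocytes were not gated out by a marker of their own. RNA was amplified from small inputs before sequencing. The authors report fewer sorted ECs and less RNA from GF than from CONV-R livers. They also report a high purity but a low viability of the sorted cells. In bulk RNA of this kind, a larger number of macrophages in the sort and more RNA per macrophage cannot be told apart, nor can either be told apart from transcription in the ECs themselves. The lower recovery of ECs went with the GF group, so it cannot be told apart from germ-free status.

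Kupffer cells are the resident macrophages of the liver. They sit inside the sinusoid, attached to the ECs, and take up bacteria, bacterial products and dying cells from portal blood. Their identity in the mouse is read from a few genes such as Clec4f, Vsig4 and Timd4, whereas Csf1r, Adgre1 and Cd68 are shared by macrophages of many tissues. Sinusoidal ECs are scavenger cells too, and some receptors of this set, among them the scavenger receptor Msr1 and the kinase Mertk, are not particular to macrophages.

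The libraries held between 7242717 and 16164588 counts. Levels are given as CPM, counts per 1000000 of the library total after TMM scaling, as mean ± SD over mice. The sinusoidal endothelial list (12 genes, among them Stab2, Clec4g and the sorting markers Pecam1, Eng and Mcam) summed to between 29301 and 41705 CPM in all libraries, and none of its 12 genes passed the test between groups. Against this level, the 8 Kupffer identity genes summed to 57.8 to 152 CPM in CONV-R mice and to 127 to 255 CPM in 4 of the GF mice. GF replicate 6 stood apart from the other libraries with 631 CPM, and it was the highest of the GF libraries for 29 of the 34 genes. GF replicate 2 had counts in 22674 genes, against 15456 to 18495 in the other libraries. The Log2FC of every gene called between the groups is therefore given with and without GF replicate 6.

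Macrophage genes were higher in the sorted cells of GF mice. Of the 32 tested genes, 15 were higher and 0 were lower at an adjusted p below 0.05 in edgeR's quasi-likelihood test, while 4.8% of all tested genes were called higher and 2.67% lower. The 15 were Clec4f, Vsig4, Timd4, Cd163, Adgre1, Csf1r, Mpeg1, Lyz2, C1qb, C1qc, Fcgr3, Fcgr4, Axl, Cybb and Cd300ld. The fitted log2 fold change (Log2FC, GF over CONV-R) was positive for 28 of the 32. Its median over the 32 was 1.29, against -0.0061 over all tested genes. Without GF replicate 6 this median was lower, and each of the 15 genes had a smaller Log2FC. The number of genes called higher fell there to 6, Cd163, Adgre1, Csf1r, C1qb, Fcgr4 and Axl, beside 3.15% of all genes tested in that fit. These 6 were also the genes called in every fit that left out 1 library. DESeq2 called 15 members higher, with Tyrobp in and Cybb out, beside 5.98% of its tested genes. The groups did not overlap at all for 2 members, Fcgr3 and Axl, both higher in GF mice, beside 3.22% of all tested genes with GF above CONV-R and 2.37% below.

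**Figure D1:**
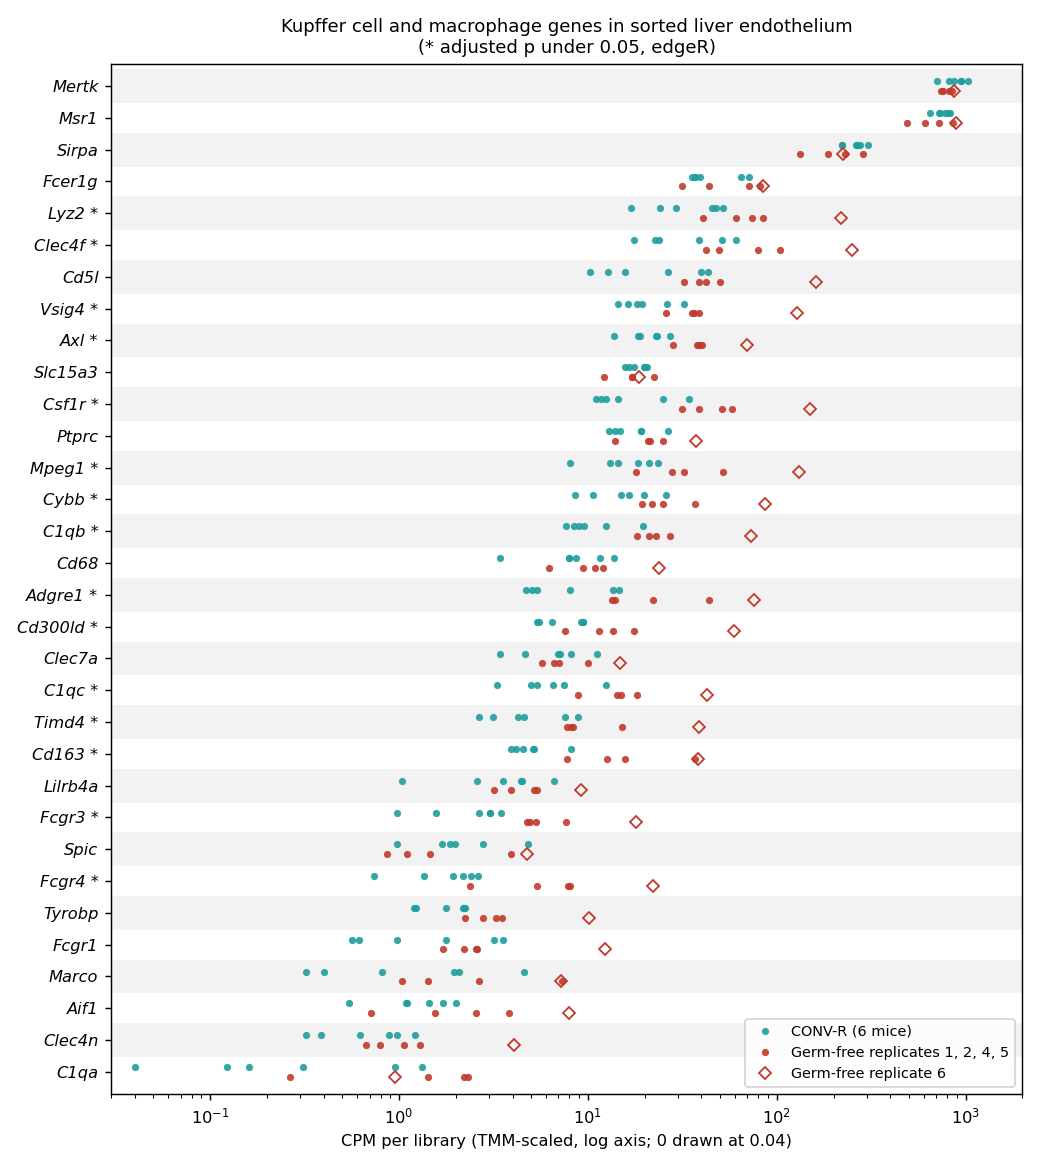
CPM of the 32 tested genes in each library on a log axis, ordered by their CONV-R mean, with 1 point per mouse. GF replicate 6 (open diamonds) is the highest of all 11 libraries for each of the 15 genes with an adjusted p below 0.05, and Mertk, Msr1 and Sirpa, the 3 with the highest CPM before any correction for length, overlap between the groups.

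Among the Kupffer identity genes, 4 of 7 tested were higher in GF mice. Clec4f (chr6:83644542-83656187, GRCm38) encodes a C-type lectin that in the mouse is restricted to Kupffer cells. In CONV-R mice it had 17.7 CPM at the lowest, 31.4 at the median and 60.8 at the highest, and GF mice had 79.9, 104, 42.4, 49.4 and 252 CPM. Of the GF mice, 2 lay within the CONV-R range and 3 above it. The Log2FC was 1.55 ± 0.40 (SE, adjusted p = 0.0262), and 0.94 without GF replicate 6, where the call was lost. Vsig4 (chrX:96247203-96293438), the complement receptor of the immunoglobulin family, had a CONV-R range of 14.4 to 32.3 CPM (median 18.8), and 35.5, 38.6, 26.0, 36.6 and 127 CPM in GF mice. All GF mice but 1 were above the CONV-R range, and the Log2FC was 1.31 ± 0.34 (adjusted p = 0.0257), or 0.69 without GF replicate 6. Timd4 (chr11:46810800-46844332), a phosphatidylserine receptor for dying cells, ranged from 2.66 to 8.84 CPM in CONV-R mice (median 4.45). Its GF values were 8.32, 15.3, 7.81, 8.20 and 38.8 CPM, 3 of them below the highest CONV-R mouse (Log2FC 1.58 ± 0.42, adjusted p = 0.0302, and 0.93 without GF replicate 6). The calls of Clec4f, Vsig4 and Timd4 were each lost without GF replicate 6 and also without CONV-R replicate 2, 4 or 5, and that of Timd4 without CONV-R replicate 3 or GF replicate 2 as well.

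Cd163 (chr6:124304656-124330527), the scavenger receptor for haemoglobin-haptoglobin complexes, had the smallest adjusted p of the set. CONV-R mice had 3.93 to 8.14 CPM (median 4.82), and GF mice had 15.7, 37.1, 12.7, 7.80 and 38.5 CPM. Only GF replicate 5 reached down into the CONV-R range. Its Log2FC was 2.10 ± 0.36 (adjusted p = 0.0016) and 1.82 without GF replicate 6, which for this gene was hardly above GF replicate 2. Cd5l, a secreted macrophage protein, averaged 24.8 ± 14.1 CPM (n = 6) and 65.2 ± 54.4 CPM (n = 5) and lay just outside the threshold (Log2FC 1.38 ± 0.42, adjusted p = 0.0539). Its Log2FC was 0.72 without GF replicate 6, and it was called in 4 of the 11 fits that left out 1 library, that one not among them. Marco, a scavenger receptor, had 1.70 ± 1.60 and 3.93 ± 3.10 CPM (adjusted p = 0.284), with GF replicates 2 and 6 highest at 7.34 and 7.19 CPM. Spic, a transcription factor of iron-recycling macrophages, was level at 2.36 ± 1.34 and 2.42 ± 1.78 CPM (Log2FC 0.01 ± 0.51, adjusted p = 0.994). Folr2, a folate receptor, had 45 counts in all CONV-R libraries together and 42 in all GF libraries and was not tested. Of its transcript stretches of 50 bases, 52.6% also occur in Gm10602, an overlapping gene on the other strand, so its few counts cannot be assigned with certainty.

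Of the general macrophage genes, 4 of 7 tested were higher. Adgre1 (chr17:57358691-57483527) encodes F4/80, the classical surface marker of mouse macrophages. It had 4.74 to 14.7 CPM in CONV-R mice (median 6.75), and 22.2, 43.8, 13.4, 14.0 and 76.2 CPM in GF mice, 3 of which were above the CONV-R range. The Log2FC of 1.97 ± 0.43 (adjusted p = 0.0095) was 1.44 without GF replicate 6 and stayed past the threshold. Csf1r, the receptor on whose signal macrophages depend for survival, had 11.1 to 34.3 CPM in CONV-R mice (median 13.5), and 51.5, 57.8, 38.8, 31.6 and 151 CPM in GF mice. GF replicate 5 alone was below the highest CONV-R mouse (Log2FC 1.85 ± 0.37, adjusted p = 0.0059, and 1.30 without GF replicate 6, still past the threshold). Of the Csf1r stretches, 14.3% are shared with Hmgxb3 on the other strand. Hmgxb3 itself had 16.8 ± 5.78 and 18.6 ± 3.11 CPM and did not pass the test (adjusted p = 0.787).

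Mpeg1 (chr19:12460779-12465283), which encodes a pore-forming protein of phagosomes, had 8.10 to 23.4 CPM in CONV-R mice (median 16.5), and 32.4, 52.1, 27.9, 18.0 and 131 CPM in GF mice. GF replicate 5 alone lay within the CONV-R range (Log2FC 1.65 ± 0.40, adjusted p = 0.0166). Without GF replicate 6 its Log2FC was 0.98 and the call was lost. Lyz2 (chr10:117277331-117282321), the macrophage lysozyme, had 35.9 ± 14.4 and 95.9 ± 70.8 CPM (Log2FC 1.41 ± 0.36, adjusted p = 0.0236). Its Log2FC was 0.86 without GF replicate 6, and the call was lost there and without CONV-R replicate 2, 4 or 5. Of its stretches, 15.4% are shared with Lyz1, which itself averaged 0.0205 CPM in CONV-R and 0.945 CPM in GF mice. Cd68, a lysosomal glycoprotein of phagocytes, did not pass (8.88 ± 3.53 and 12.5 ± 6.72 CPM, adjusted p = 0.414), nor did Aif1, which encodes the actin-binding protein IBA1 (1.32 ± 0.52 and 3.33 ± 2.86 CPM, adjusted p = 0.149). Trem2, a lipid-sensing receptor of macrophages, had 4 counts in CONV-R and 18 in GF libraries and was not tested. Msr1, the class A scavenger receptor, was a different case from the rest of this group, with 649 to 826 CPM in CONV-R mice and 859, 492, 725, 608 and 895 CPM in GF mice. The groups overlapped broadly (Log2FC -0.07 ± 0.14, adjusted p = 0.814).

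The 3 chains of C1q, the recognition molecule of the classical complement pathway, lie side by side on chromosome 4, and macrophages are their main source. C1qb (chr4:136880129-136886187) had 7.65 to 19.5 CPM in CONV-R mice (median 9.29), and 27.1, 22.9, 18.3, 21.0 and 72.8 CPM in GF mice. C1qc (chr4:136889804-136893065) had 3.29 to 12.6 CPM (median 5.97), and 18.2, 14.2, 14.95, 8.86 and 43.0 CPM. In both genes only 1 GF mouse lay within the CONV-R range, replicate 4 for C1qb and replicate 5 for C1qc. The Log2FC was 1.53 ± 0.34 (adjusted p = 0.0096) for C1qb and 1.55 ± 0.37 (adjusted p = 0.0154) for C1qc. Without GF replicate 6 it was 1.01 for C1qb, still past the threshold, and 1.07 for C1qc, where the call was lost. C1qa had a like fitted Log2FC of 1.55 but an SE of 0.71, from 38 counts in all CONV-R and 82 in all GF libraries, and did not pass (adjusted p = 0.202). Per kilobase of exon, C1qa stood at 0.46 CPM in CONV-R mice against 10.2 CPM for C1qb and 3.48 CPM for C1qc, although the chains assemble in equal parts. The log2 ratio of C1qb to C1qa was 4.44 ± 1.01 in CONV-R and 4.37 ± 1.32 in GF mice, and these counts were too few for a test of that ratio.

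Fc receptors bind antibody-coated particles, and those of the activating kind signal through the adaptor chain encoded by Fcer1g. Fcgr4 (chr1:171018920-171029761) showed the largest Log2FC of the set at 2.26 ± 0.46 (adjusted p = 0.0058), and 1.65 without GF replicate 6, still past the threshold. Its CONV-R range was 0.737 to 2.64 CPM (median 2.05), and GF mice had 5.39, 7.82, 8.09, 2.38 and 22.2 CPM, with GF replicate 5 alone in the CONV-R range. Fcgr3 (chr1:171051174-171064935) had 0.982 to 3.49 CPM (median 2.85), and 4.94, 5.31, 4.76, 7.67 and 17.9 CPM in GF mice, all above the highest CONV-R mouse (Log2FC 1.69 ± 0.40, adjusted p = 0.0148). Without GF replicate 6 its Log2FC was 1.18 and the call was lost. Of the Fcgr3 stretches, 9.58% also occur in Fcgr2b, the inhibitory Fc receptor of sinusoidal ECs, which reached 6570 ± 1890 CPM in CONV-R and 5876 ± 1653 CPM in GF mice and did not pass the test (adjusted p = 0.667). Whether Fcgr2b reads were counted for Fcgr3 was not tested. Fcgr1, the high-affinity receptor, had 1.78 ± 1.31 and 4.29 ± 4.52 CPM (adjusted p = 0.217), with 12.3 CPM in GF replicate 6 and at most 2.60 in the other GF mice. The adaptors differed from each other in level. Tyrobp, the DAP12 chain of myeloid cells, had 1.81 ± 0.489 and 4.40 ± 3.26 CPM (Log2FC 1.27 ± 0.41, adjusted p = 0.0694, and 0.72 without GF replicate 6). Fcer1g was much more abundant at 47.5 ± 16.1 and 62.7 ± 23.9 CPM and overlapped between the groups (Log2FC 0.40 ± 0.25, adjusted p = 0.364).

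Axl and Mertk are related receptor tyrosine kinases through which cells recognise and clear apoptotic neighbours. They behaved differently from each other. Axl (chr7:25757273-25788705) had 13.8 to 27.4 CPM in CONV-R mice (median 21.0), and 40.3, 37.7, 38.9, 28.4 and 69.9 CPM in GF mice. Every GF mouse was above every CONV-R mouse (Log2FC 1.04 ± 0.21, adjusted p = 0.0059, and 0.80 without GF replicate 6). Mertk (chr2:128698956-128802894) had 706 to 1029 CPM in CONV-R mice (median 907), and 818, 850, 759, 739 and 870 CPM in GF mice (Log2FC -0.13 ± 0.11, adjusted p = 0.485). All its GF values fell inside the CONV-R range. The log2 ratio of Mertk to Axl within a mouse was 5.42 ± 0.33 in CONV-R and 4.29 ± 0.40 in GF mice, a difference of -1.14 with no overlap (two-sided exact permutation test over 462 splits of the mice, p = 0.0043, adjusted p = 0.0390 over the 9 ratios tested). It was the 1 ratio of the 9 to pass. Without GF replicate 6 the difference was -0.97 and the ratio still passed. Without any 1 CONV-R mouse it did not (adjusted p = 0.0714 by the exact permutation test each time, the smallest that a lone ratio can reach with 5 mice a group), with differences of -1.07 to -1.24.

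Ratios to Adgre1 compared 5 Kupffer identity genes and the general macrophage gene Lyz2 with a general macrophage marker in the same mouse. The log2 ratio of Vsig4 to Adgre1 was 1.37 ± 0.36 in CONV-R and 0.71 ± 0.57 in GF mice (difference -0.66, exact permutation p = 0.0325, adjusted p = 0.146). For Clec4f the difference was -0.39 (2.05 ± 0.58 and 1.65 ± 0.24), for Timd4 -0.40, for Cd5l -0.46, for Marco -0.58 and for Lyz2 -0.50. All 6 ratios were thus lower in GF mice on average, and none passed the threshold with all 11 libraries. Without GF replicate 5 the ratio of Vsig4 to Adgre1 did pass (difference -0.83, adjusted p = 0.0429 by the exact permutation test). The 6 ratios share the Adgre1 value of each mouse, so their common sign does not count 6 times. The ratios of Fcgr4 to Fcgr3 and of Tyrobp to Fcer1g differed by 0.37 and 0.67 and did not pass with all 11 libraries either (adjusted p = 0.374 and 0.259 by the exact permutation test).

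In the remaining groups, 2 of 8 tested genes were higher. Cybb (chrX:9435252-9487771), the catalytic subunit of the phagocyte NADPH oxidase, had 16.1 ± 6.36 CPM in CONV-R and 38.0 ± 27.9 CPM in GF mice (Log2FC 1.23 ± 0.36, adjusted p = 0.0438). Cd300ld (chr11:114982274-114989922), a lipid-binding activating receptor of myeloid cells, had 7.59 ± 2.00 and 22.0 ± 21.3 CPM (Log2FC 1.52 ± 0.41, adjusted p = 0.0309). In GF replicate 6 Cd300ld reached 59.5 CPM and in the other GF mice 7.62 to 17.5 CPM, and without that library its Log2FC was 0.73 and the call was lost, as it was for Cybb (0.68). Both calls were also lost without CONV-R replicate 2, 4 or 5, and that of Cybb without CONV-R replicate 3 or 6 or GF replicate 2 as well. The fungal-pattern lectins Clec4n (0.735 ± 0.351 and 1.58 ± 1.41 CPM) and Clec7a (6.93 ± 2.73 and 8.84 ± 3.70 CPM) did not pass. Lilrb4a, an inhibitory receptor, had 3.79 ± 1.90 and 5.39 ± 2.33 CPM, and 47.2% of its stretches occur in neighbouring copies such as Lilr4b. Sirpa, the inhibitory receptor that reads CD47 on other cells, had 222 to 305 CPM in CONV-R mice and 187, 230, 286, 133 and 224 CPM in GF mice (Log2FC -0.29 ± 0.16, adjusted p = 0.279). The lysosomal peptide transporter Slc15a3 was level at 18.4 ± 2.06 and 17.5 ± 3.65 CPM, with 26.8% of its stretches shared, nearly all with Tmem132a on the other strand. Ptprc, which encodes the leukocyte phosphatase CD45, had 17.8 ± 5.12 CPM in CONV-R and 23.7 ± 8.59 CPM in GF mice (Log2FC 0.40 ± 0.23, adjusted p = 0.318).

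**Figure D2:**
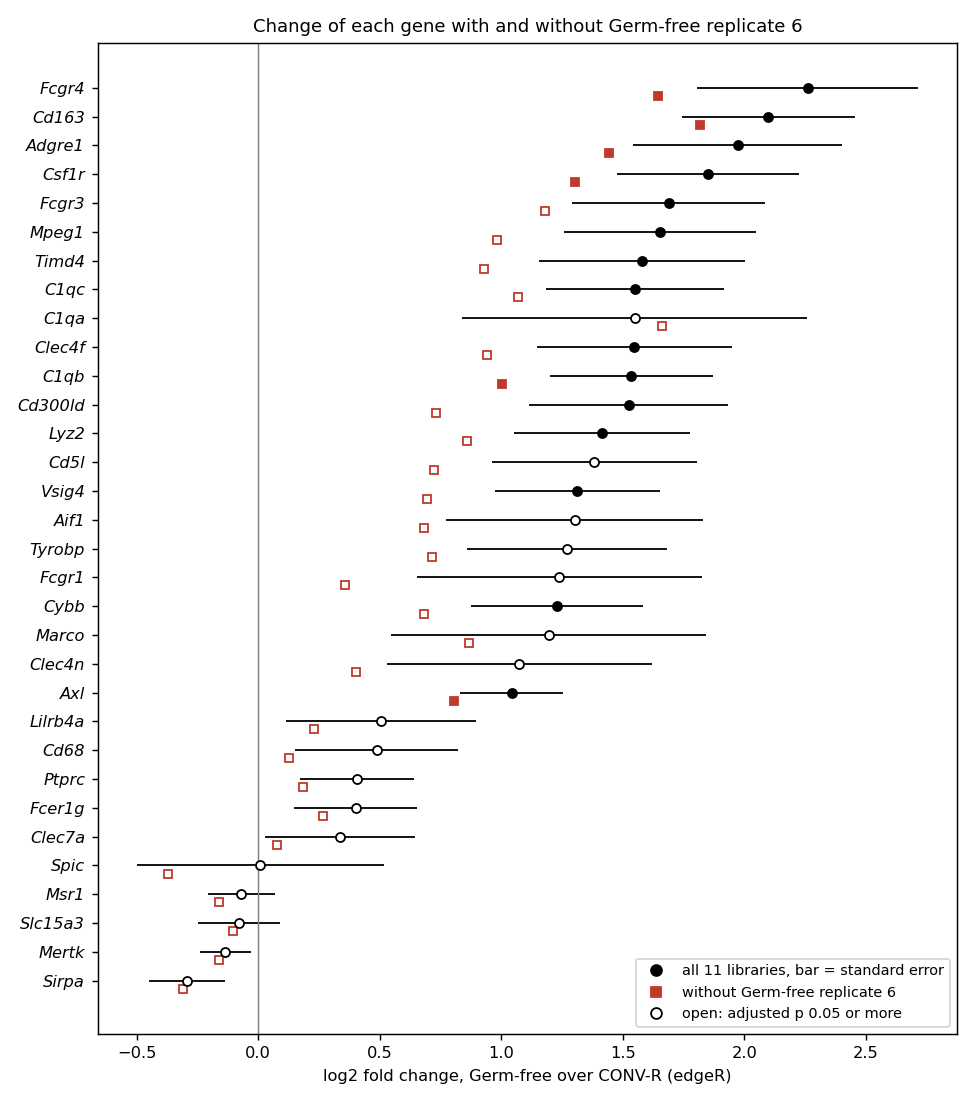
Log2FC of the 32 tested genes from edgeR with all 11 libraries (circles, bars show the standard error) and without GF replicate 6 (squares), filled where the adjusted p was below 0.05. Leaving out that library lowered the Log2FC of the called genes, and 6 of the 15 stayed past the threshold.

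Levels can be compared between genes only per length. In CPM per kilobase of exon, the highest of the set in CONV-R mice were Mertk at 204, Msr1 at 118, Fcer1g at 54.3, Sirpa at 52.8 and Lyz2 at 27.3. Clec4f followed at 14.5, Vsig4 at 14.2, Cd5l at 12.2 and C1qb at 10.2, and the other genes were below these. The 4 most abundant genes per length were not called between groups, whereas Lyz2, Clec4f, Vsig4 and C1qb were. For comparison, the endothelial gene Stab2 stood at 854 CPM per kilobase in CONV-R mice. Ptprc, which all leukocytes express, stood over the union of its exons at 0.972 in CONV-R and 1.29 in GF mice, so Clec4f was above Ptprc per length in both groups. That union holds 18313 bases for Ptprc and 2471 for Clec4f, and the size of the gap depends on these lengths.

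**Figure D3:**
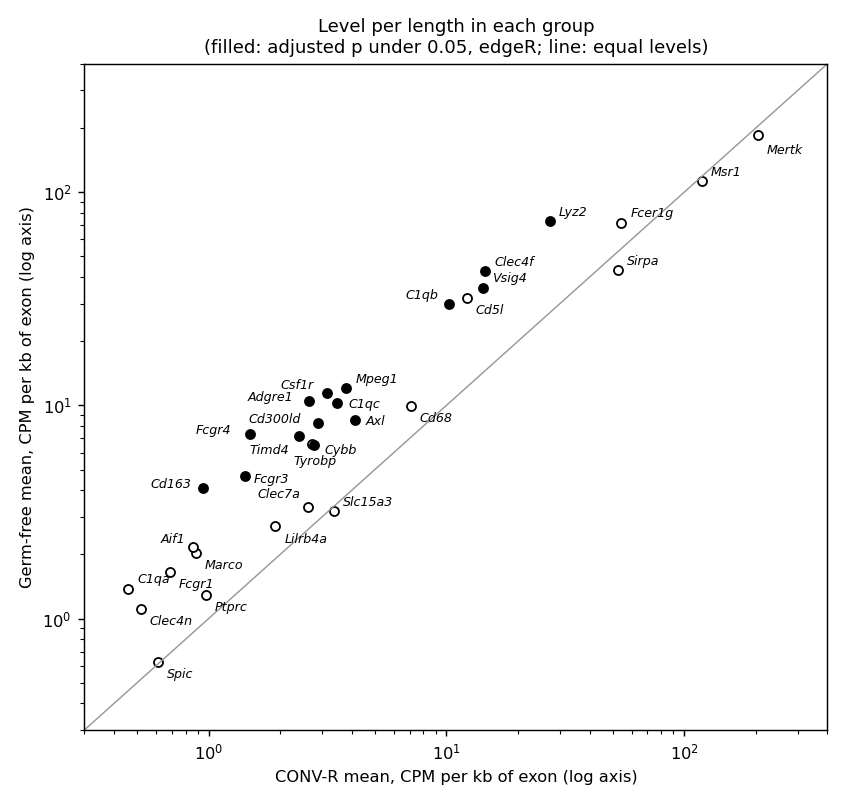
Mean level per kilobase of exon in GF mice against CONV-R mice on log axes for members with at least 100 counts in all libraries together, filled where the adjusted p was below 0.05. The called genes lie above the line of equal levels, between 0.949 (Cd163) and 27.3 (Lyz2) CPM per kilobase in CONV-R mice, and Mertk, Msr1, Sirpa and Fcer1g lie near the line at higher levels.

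The mice of one group also differed among themselves, and most of the called genes did so together. Deviations of log2 CPM from the group mean were correlated with those of Clec4f over the 11 mice (r and rho with permutation within groups). Of the other 31 tested members, 19 had a positive r with an unadjusted p below 0.05 and 0 a negative one, beside 4.07% of all 12904 genes correlated. By rho there were 17. After adjustment over all genes none passed (smallest adjusted p = 0.111), so these correlations are a description of these 11 mice. The median r was 0.77 for the members and -0.0033 for all genes, and 13 members were among the 100 genes with the highest r. Among the members, those most like Clec4f were Cd5l (r = 0.96, permutation p = 0.0001, rho = 0.92, permutation p = 0.0003), Csf1r (r = 0.95, permutation p = 0.0002, rho = 0.89, permutation p = 0.0017), Mpeg1 (r = 0.93, permutation p = 0.0003, rho = 0.92, permutation p = 0.0005) and Ptprc (r = 0.93, permutation p = 0.0002, rho = 0.92, permutation p = 0.0006).

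The mice farthest from the median of these deviations in Clec4f were GF replicate 6 and CONV-R replicate 1. Without them, r was 0.90 for Cd5l, 0.88 for Csf1r, 0.88 for Mpeg1 and 0.84 for Ptprc. It stayed above 0 for all 19 members and above 0.5 for 15 of them. The 4 others, Fcgr3, Tyrobp, Cd68 and Clec7a, had an r between 0.34 and 0.47, so their relation rests in good part on these mice. Within the 6 CONV-R mice alone, 7 members had a positive r with a permutation p below 0.05, beside 3.82% of all genes, and none passed after adjustment over all genes (smallest adjusted p = 0.556). Lyz2 followed Clec4f less closely (r = 0.65, permutation p = 0.057) and had an r of 0.18 without the farthest mice. The abundant genes that did not differ between groups did not follow Clec4f past the threshold either, with r = 0.34 for Mertk, 0.40 for Msr1, 0.06 for Sirpa and -0.02 for Fcer1g. For these genes r without the farthest mice was 0.45 for Mertk, -0.018 for Msr1, -0.10 for Sirpa and -0.74 for Fcer1g.

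**Figure D4:**
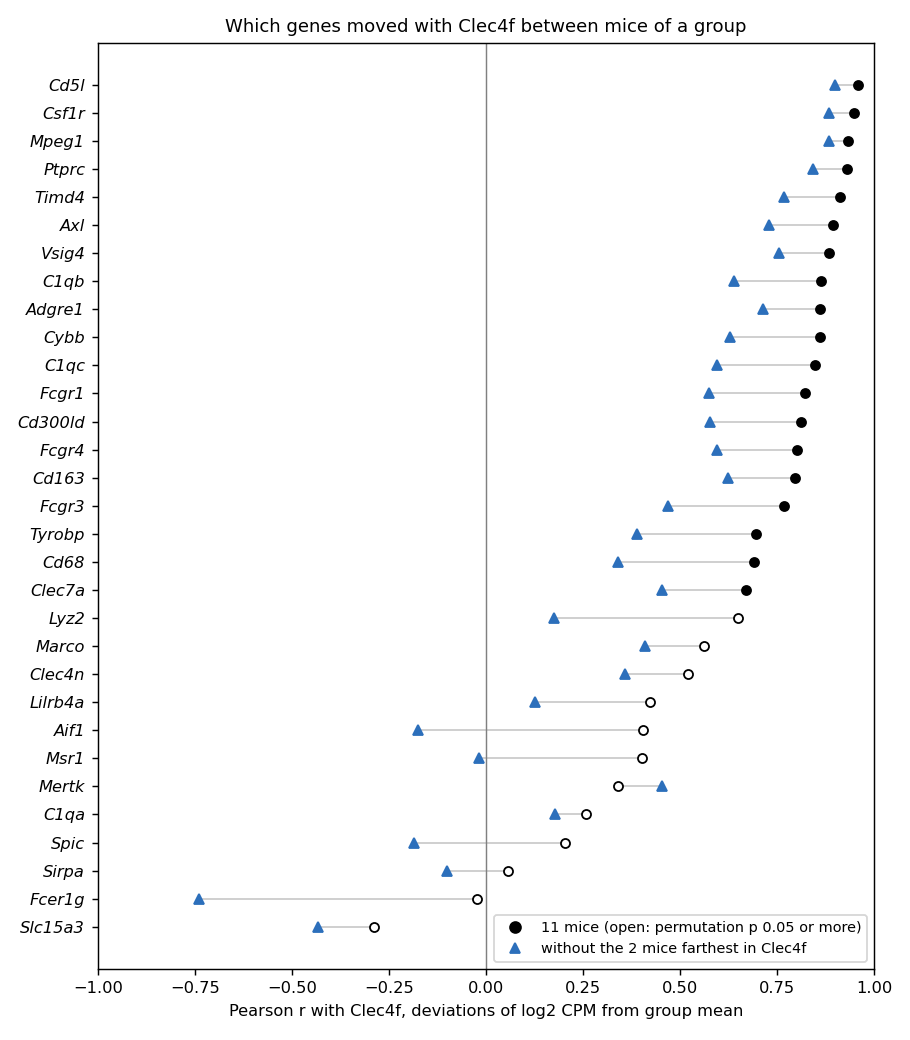
Pearson r of each gene with Clec4f across 11 mice, on deviations of log2 CPM from the group mean (circles, filled where the unadjusted permutation p was below 0.05), and again without the 2 mice farthest from the median deviation of Clec4f (triangles). Cd5l, Csf1r, Mpeg1 and Ptprc stay above 0.8 without those mice, and Sirpa, Fcer1g and Slc15a3 lie near or below 0.

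Genes around the set were read from further lists. Of 6 tested macrophage transcription factors, Irf8, which drives myeloid development, was higher (43.6 ± 5.12 and 64.1 ± 12.5 CPM, Log2FC 0.55 ± 0.14, adjusted p = 0.0250) and none was lower by edgeR, while DESeq2 also called Tfec lower (Log2FC -0.67). The Log2FC of Irf8 was 0.49 without GF replicate 6, and the call was lost there and without CONV-R replicate 4, 5 or 6. Spi1, which encodes PU.1, had 0.717 ± 0.367 and 1.60 ± 0.891 CPM (adjusted p = 0.186). Of 15 tested myeloid genes, 4 were higher, the lysosomal proteases Ctss (Log2FC 1.56 ± 0.37) and Ctsc (1.41 ± 0.37), the lysosomal protein Laptm5 (1.36 ± 0.40) and the tetraspanin Cd53 (1.30 ± 0.31), and none was lower. Without GF replicate 6 the Log2FC was 0.81 for Ctss, which was called in every fit that left out 1 library, and 0.79 for Ctsc, 0.93 for Laptm5 and 0.83 for Cd53, whose calls were lost. DESeq2 gave no adjusted p for Ctss, and it called Cd14 of this list higher (Log2FC 1.31). The Ctsc call was also lost without CONV-R replicate 2 or 4, and Laptm5 was called in 3 of the 11 such fits. Among 13 tested ligands and partners of the set, Ncf1, an organising subunit of the Cybb oxidase, was higher (2.13 ± 0.896 and 5.83 ± 3.85 CPM, Log2FC 1.45 ± 0.41, adjusted p = 0.0392). Its Log2FC was 0.97 without GF replicate 6, and its call held in 5 of the 11 fits that left out 1 library, that one not among them. Csf1, the ligand of Csf1r, went the other way. It had 149 to 388 CPM in CONV-R mice (median 205), and 85.0 to 163 CPM in GF mice (Log2FC -0.87 ± 0.23, adjusted p = 0.0267, and -0.998 without GF replicate 6), with overlap between the groups. This call was lost without GF replicate 1 or 2. The ligands of Axl and Mertk did not pass, with 151 ± 27.0 and 126 ± 20.7 CPM for Gas6 and 717 ± 85.5 and 756 ± 136 CPM for Pros1, nor did Cd47 (2469 ± 139 and 2900 ± 568 CPM).

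Markers of other cells that the sort could hold were read in the same way, and most were low. The 6 monocyte genes summed to 5.12 to 14.0 CPM in CONV-R and 3.28 to 10.9 CPM in GF mice, with Plac8 the most abundant and 0 of 2 tested genes called. The 8 neutrophil genes summed to 0.643 to 5.03 and 1.17 to 3.83 CPM, with Csf3r the most abundant tested gene, and Ly6g had 1 count in each group. The 10 lymphocyte genes summed to 6.67 to 15.3 CPM in CONV-R and to 3.96 to 5.90 CPM in GF mice, so that these sums were lower in every GF mouse, with 0 of 4 tested genes called by edgeR and Ms4a1 the most abundant. In GF replicate 6 the lymphocyte sum was 5.43 CPM and the monocyte sum 8.82 CPM, both within the range of the other libraries. The 8 hepatocyte genes summed to 31.1 to 67.5 and 37.4 to 97.3 CPM and the 8 stellate cell genes to 14.0 to 25.4 and 5.33 to 30.5 CPM, with Alb and Rgs5 the most abundant and none called in either list by edgeR. DESeq2 called the stellate gene Lrat lower (Log2FC -1.42), as did edgeR without GF replicate 6. Of 3 tested dendritic cell genes, Zbtb46, which ECs express as well, was lower (475 ± 56.3 and 362 ± 45.5 CPM, Log2FC -0.39 ± 0.11, adjusted p = 0.0443). Its Log2FC was -0.39 without GF replicate 6 too, but its call held in 2 of the 11 fits that left out 1 library, that one not among them. Ccr7, of the same list, had 65 counts in CONV-R and 5 in GF libraries (0.482 to 1.32 and 0 to 0.193 CPM) and was under edgeR's count filter, and DESeq2 called it lower. Clec9a had 265 ± 33.3 and 336 ± 57.6 CPM, while Xcr1, a defining marker of the same dendritic cells, had 6 counts in CONV-R and 9 in GF libraries.

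PU.1 is the factor that governs many macrophage genes, and the promoters of the set were searched for its core word GAGGAAGT on both strands. Each window ran from 250 bases before to 50 bases after a start. Some genes had more than 1 window, and a gene counted if any of its windows held the word. RefSeq promoters (GRCm38.p6) were found for 25 of the 34 genes, and 3 of these (12%) held the word, beside 3.69% of all 27025 genes in the table. The 3 were C1qc, Cd300ld and Fcgr4. They were among the genes higher in GF mice, but 15 of the 32 tested members were higher. Most of the higher genes with a promoter found lacked the word, among them Clec4f, Vsig4, Timd4, Cd163, C1qb and Axl. A link between the word and the change was not tested. The 3 promoters are shown 5' to 3' on the strand of the gene with the word, or its reverse complement ACTTCCTC, in capitals. The first base of the match lay 195 bases before the start in C1qc (chr4:136892865-136893164, minus strand), 143 before it in Cd300ld (chr11:114989837-114990136, minus strand) and 24 before it in Fcgr4 (chr1:171018676-171018975, plus strand).
C1qc: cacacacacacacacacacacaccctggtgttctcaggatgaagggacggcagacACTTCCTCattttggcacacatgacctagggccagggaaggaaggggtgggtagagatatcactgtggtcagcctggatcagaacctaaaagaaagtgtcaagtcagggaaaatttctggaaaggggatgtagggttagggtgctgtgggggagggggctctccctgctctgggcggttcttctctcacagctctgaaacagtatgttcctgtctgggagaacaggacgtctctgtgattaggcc
Cd300ld: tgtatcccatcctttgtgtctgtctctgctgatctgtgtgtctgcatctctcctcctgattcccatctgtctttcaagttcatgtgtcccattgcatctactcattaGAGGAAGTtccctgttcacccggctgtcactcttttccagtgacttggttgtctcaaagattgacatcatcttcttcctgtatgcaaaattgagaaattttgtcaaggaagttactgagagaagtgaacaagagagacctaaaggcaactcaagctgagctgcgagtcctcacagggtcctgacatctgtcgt
Fcgr4: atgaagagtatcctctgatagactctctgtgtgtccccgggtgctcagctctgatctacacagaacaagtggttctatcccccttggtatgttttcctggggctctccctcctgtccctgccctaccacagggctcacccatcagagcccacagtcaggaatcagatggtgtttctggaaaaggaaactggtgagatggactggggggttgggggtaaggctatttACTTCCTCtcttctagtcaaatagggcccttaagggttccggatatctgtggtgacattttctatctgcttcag
A match of letters is not a bound site, and the lack of this exact word in the other 22 genes says nothing about the factor.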

How the data were processed

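RNA of sorted hepatic ECs was sequenced from 6 CONV-R and 5 GF mice, grouped by the sample labels. The authors deposited raw counts per gene, made by trimming with Trim Galore, alignment to GRCm38 by STAR and featureCounts tables. They also deposited log2 values normalized with the DESeq method, used here only as an alternative. The authors left out 1 further GF library with few mapped reads. The annotation release and strand setting are not given in the sources used here. Labels do not say that mice came from separate litters or cages, so p-values measure the spread between these mice.

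The 34 genes and all lists were chosen with earlier results of these data known. Every one of the 34 is named; from each other list, the genes with an adjusted p below 0.05 or else its most abundant tested gene were named, and Spi1, Gas6, Pros1, Cd47, Clec9a, Xcr1, Ly6g, Lrat, Tfec, Ccr7, Cd14, Stab2, Clec4g and genes sharing sequence were added after their values were seen. In R 4.3.3, edgeR 4.0.16 (filterByExpr, TMM, quasi-likelihood test) was fitted over all genes, with Benjamini-Hochberg adjustment over the 12905 tested and a threshold of 0.05. The script was tested on simulated data. Log2 CPM for ratios and correlations used a prior count of 2. Of 12 ratios chosen, 9 had a median of at least 10 counts in both genes and were tested. Correlations used 100000 permutations and were adjusted over all genes, in place of a planned adjustment over the set. Alternatives were DESeq2 1.42.0, limma 3.58.1 (voom, and trend on the deposited log2 values), other filters and scalings, each library left out and a block on replicate number. Exon lengths and 50-base stretches shared between genes, on either strand, came from GENCODE M21. Depth, 7242717 to 16164588 counts per library, limits genes with few counts.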

Additional observations from a re-analysis of the deposited data

Results flagged for a closer look

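Each of the 34 genes was examined in both groups for a single library far from the others by Dixon's criterion, which chance meets in about 1 of 20 groups. Of the 68 groups examined, 17 met it, and in 16 of these GF replicate 6 was the highest library. They share this mouse and are therefore not 16 separate observations. Its values were 127 CPM for Vsig4, 162 for Cd5l, 38.8 for Timd4, 151 for Csf1r, 219 for Lyz2, 1.09 for Trem2, 72.8 for C1qb, 43.0 for C1qc, 12.3 for Fcgr1, 17.9 for Fcgr3, 22.2 for Fcgr4, 10.2 for Tyrobp, 69.9 for Axl, 86.4 for Cybb, 4.07 for Clec4n and 59.5 for Cd300ld. The remaining case was Cd163 in CONV-R replicate 1, the highest of its group at 8.14 CPM. GF replicate 6 had 7819846 counts, the second lowest total, and its endothelial list summed to 37993 CPM, within the range of the other libraries.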

How the results depend on the processing

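With all 15 higher calls as the reference, limma on the deposited log2 values kept 1 member (Cd163, beside 1.16% of all genes tested there), robust quasi-likelihood called 10 (4.73%), without Clec4f, Vsig4, Mpeg1, Lyz2 and Cybb, and voom called 12 (4.62%), without Timd4, Cybb and Cd300ld. The count ranged from 6 to 17 when 1 library was left out. It was 9 without CONV-R replicate 2, 4 or 5, where 3.4%, 3.26% and 3.62% of all genes were called higher, and 6 without GF replicate 6 (3.15%), against 4.8% with all libraries. No member was called lower in any fit, and no result turned direction past the threshold. Over the 32 tested members and all alternatives, 57 Log2FC lost their call, 9 gained one and 566 kept their side of the threshold. Among the 67 tested genes of the other lists, 6 were higher (8.96%, against 4.8% of all tested genes; 1 to 11 with 1 library left out) and 2 lower (2.99%, against 2.67%; 1 to 5, and 6 by DESeq2). GF lay above CONV-R without overlap for 2 members (3.22% of all tested genes) and for 2 to 8 with 1 library left out, namely 7 without CONV-R replicate 1 (4.56%), 5 without GF replicate 4 (4.42%) and 8 without GF replicate 5 (5.38%). The 1 ratio that passed became 0 without any 1 CONV-R mouse, where the smallest adjusted p that a lone ratio can reach is 0.0714. Without GF replicate 5 there were 3, that of Vsig4 to Adgre1 among them. Of the members correlated with Clec4f, 19 became 7 in CONV-R mice alone. The cause of these shifts was not tested. Same-numbered mice did not deviate together in every pair (correlations of 0.20, 0.048, -0.014, 0.024 and 0.094), so the numbers are not taken to pair them. With a replicate block on the 10 libraries that share numbers, 16 members were higher (5.37% of all genes tested there), against 13 (4.65%) in the same libraries without the block, and no ratio passed (0), since sign flips of 5 pairs cannot go below 0.0625.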
